A study of Mesocricetus auratus with 24 samples.

Results

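The comparison set a Syrian hamster culture that had bypassed senescence (SENbp) against the same culture while it was senescent (SEN). It used 8 of the 24 libraries of the series, 4 per state, chosen by the state named in each library's title. The culture grew from 1 morphologically transformed (MT) colony of a Syrian hamster embryo (SHE) assay, which was run on pooled female and male fetuses, and a kdm5c/d qPCR test typed it as male. The colony had been treated with benzo[a]pyrene (B[a]P, 5 µg/mL), so both states share that treatment and no untreated counterpart was sampled. The senescent libraries were taken on day 48 and the bypass libraries on day 94. Bypass and time in culture therefore cannot be told apart. The submitters describe the 4 libraries of each state as technical replicates, so every p-value below covers the spread between libraries of 1 culture and not between cultures. A starting level from outside the comparison, and a further level at some named windows, came from the 4 libraries of transformed colonies (MTc). These were B[a]P-treated cultures expanded for 19 to 25 days from colonies of the same morphology, in an assay on the cells of a single male fetus.

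In mammals most methylated cytosines lie in CpG dinucleotides. Levels of CpG-rich regions are typically either very low, as at many promoters, or high, as in much of the remaining genome. Senescence is a lasting arrest of the cell cycle that normal cells enter in culture, and cells that bypass it resume division and can become immortal. The SHE assay scores colonies of altered morphology as an early step on that path, and B[a]P is a polycyclic aromatic hydrocarbon whose metabolites bind DNA. Reduced representation bisulfite sequencing (RRBS) sequences fragments rich in CpG after bisulfite has turned unmethylated cytosines into bases read as T, so that the share of reads keeping a C gives the methylation of each position.

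Senescent libraries listed 885970 to 1484688 CpG positions with a total coverage of 39858141 to 52772391. Bypass libraries listed 941114 to 1259945 positions with a total of 35033371 to 48909677. Positions were summed over windows of 1 kb, the unit used throughout. A window counted as measured when 3 or more positions with 10 reads or more were present in every one of the 8 libraries, which held for 41103 windows. Of these, 24638 had a pooled methylation of 5 to 95% and were tested. The positions behind a window differed in part between libraries. Over tested windows the Pearson correlation of levels ran from 0.824 to 0.890 between senescent libraries, from 0.806 to 0.855 between bypass libraries and from 0.753 to 0.851 across states. The median standard deviation of a tested window was 9.05 points among senescent and 9.52 points among bypass libraries. Windows are named by scaffold and position because no genome build is given for the files in the sources used here. For the same reason no gene is named, and no gene list or cell type marker was examined.

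Methylation was higher after bypass, and the rise was small over all windows and large in a few. The mean over measured windows was 45.4%, 46.0%, 45.4% and 45.2% in the senescent libraries and 48.0%, 47.7%, 48.0% and 47.9% in the bypass libraries. Every bypass library lay above every senescent one. The group means were 45.5% ± 0.360 and 47.9% ± 0.111 (SD, n = 4 each), which differed by 2.39 points (p = 0.0286 in an exact two-sided permutation test, the smallest that 70 assignments of 4 against 4 allow). Weighted by reads, the difference was 1.00 point and did not pass (exact permutation p = 0.486). Over the 24638 tested windows the median difference was 3.44 points, with the 5th percentile at -16.2 and the 95th at 25.0.

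The window test was a quasi-binomial model with dispersions squeezed by limma's method. Windows were called at a Benjamini-Hochberg adjusted p below 0.05 together with group means at least 10 points apart. By this rule 816 windows rose (3.31% of those tested) and 75 fell (0.304%), so 3.62% of tested windows were called in either direction and 91.6% of those calls were higher after bypass. Tested windows as a set leaned the same way, with 63.5% above 0, 26% higher by at least 10 points and 11.1% lower by at least 10. The median change was 26.9 points among windows called higher and -27.9 points among those called lower. A rise of at least 50 points occurred in 55 called windows and such a fall in 2. The calls depend on the test and on the libraries. At an unadjusted p below 0.05 the model held 4913 windows (19.9%), while edgeR's quasi-likelihood test called 0 windows (2327 higher and 363 lower at an unadjusted p below 0.05). Leaving out 1 library gave 395 to 684 windows called higher and 32 to 49 called lower.

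The size of the rise went with the level at which a window started. Classes were taken from the transformed colonies, whose libraries share no counts with the difference, and covered the 36857 windows measured there too. In each of the 5 classes the lowest bypass library was above the highest senescent one (exact permutation p = 0.0286 each, Benjamini-Hochberg adjusted over the 5 classes 0.0286). The difference was widest in windows at 20 to 40% in the colonies (n = 1983 windows). There the senescent libraries had 36.3%, 38.1%, 37.1% and 35.9% and the bypass libraries 43.9%, 43.0%, 43.2% and 43.5%, a rise of 6.53 points. The rise was 4.11 points at 40 to 60% (2780 windows), 1.74 at 60 to 80% (5485 windows) and 1.24 at 80 to 100% (9857 windows). For 60 to 80% the group means were 73.6% ± 0.794 and 75.3% ± 0.155 (SD, n = 4), and that class no longer passed when any 1 of the bypass libraries was left out (exact permutation p = 0.0571). Differences between the classes themselves were not tested.

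In the lowest class a minority of windows carried the rise. Windows at 0 to 20% in the colonies (n = 16752) rose by 2.67 points on average, from 4.82% ± 0.182 to 7.50% ± 0.185 (SD, n = 4). Their median difference was 0.44 points, so most of them barely moved. A rise of at least 10 points was seen in 10.6% of these windows and such a fall in 1.28%. At 20 to 40% the corresponding shares were 37.7% and 12.6%, with a median difference of 5.26 points. At 80 to 100% they were 10.4% and 5.84%. Over all windows of a class, 2.44% of the lowest class (409 windows) were called higher, against 6.05%, 3.09%, 1.59% and 0.71% in the classes above it in order. Counted over tested windows only, the lowest class had the highest share (7.43%, against 6.15% at 20 to 40%). Only 32.9% of it was tested, against 98.4% at 20 to 40%, because windows near 0 in both states fall below the pooled limit of 5% and one that rose can pass it. Windows called lower numbered 6 in the lowest class (0.109% of those tested), 24 at 60 to 80% (0.452%) and 28 in the highest class (0.461%). Many windows of the lowest class lie too near the bottom of the scale to fall by 10 points, so its low count was partly fixed in advance.

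**Figure D1:**
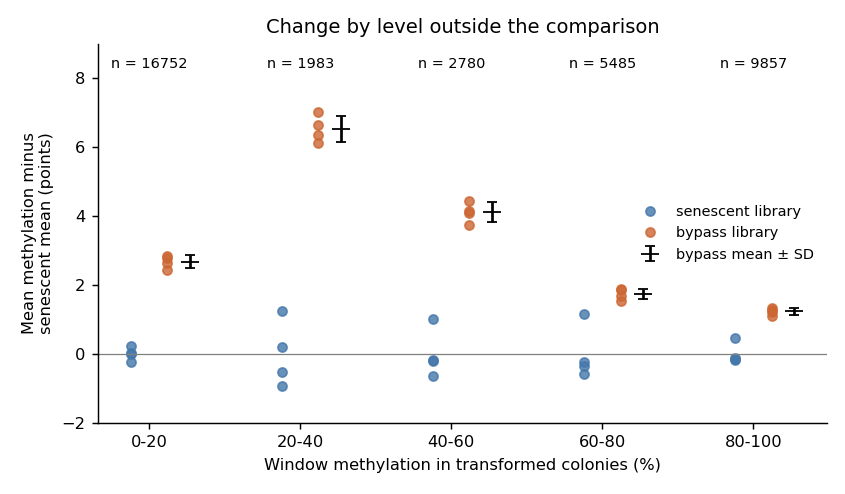
Mean methylation of each library minus the senescent mean, in percentage points, by the window's level in the transformed colonies (%). Points are single libraries of the senescent and bypass groups. All bypass points lie above all senescent points in each class, and the gap is widest at 20 to 40%, where it is 6.53 points.

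Finer classes of the low windows placed this minority. In windows under 1% in the colonies (n = 8050) the mean went from 1.15% to 1.71% and 1.39% of windows rose by at least 10 points. The medians of the single libraries there were 0 to 0.109% in senescence and 0 in every bypass library. At 2 to 5% (n = 2920) the mean went from 5.68% to 10.1%, and 16.5% of windows rose by at least 10 points. At 10 to 20% (n = 1489) it went from 20.2% to 27.5%, and 35.7% rose by that much. In all 5 finer classes each bypass library had a higher mean than each senescent library. Windows with almost no methylation outside the comparison thus stayed near 0 for the most part, and the share that rose was larger in each class above.

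Setting the class from the senescent libraries themselves gave rises of 2.89, 7.87, 6.45 and 2.72 points up to 80% and a fall of 0.437 points at 80 to 100%. In that version a window's counting error enters both the class and the difference. With the class from 1 senescent library and the difference from the other 3, averaged over the 4 choices, the 5 classes rose by 2.52, 6.41, 4.29, 2.36 and 1.00 points. The order of the classes was then the same as with the colonies.

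Levels were bimodal in both states, with most windows near 0 or near 100%. Windows under 20% made up 41.8%, 41.9%, 41.6% and 42.2% of the measured windows in the senescent libraries and 38.8%, 39.3%, 38.9% and 39.4% in the bypass libraries. The groups did not overlap, and the share fell by 2.76 points (exact permutation p = 0.0286, adjusted over 3 shares 0.0429). Windows at 80% or more went from 31.1% ± 0.577 to 33.5% ± 0.127 (SD, n = 4), a rise of 2.45 points with the same p-values. The share between these limits was 27.02% ± 0.658 in senescence and 27.3% ± 0.256 after bypass, a difference of 0.317 points, which is smaller than the SD of the senescent libraries (exact permutation p = 0.457).

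That steady middle share hid a change of its shape. In steps of 10 points, windows under 10% went from 37.2% ± 0.267 to 33.5% ± 0.460 of all measured windows. The steps just above gained: 10 to 20% went from 4.67% to 5.66%, 20 to 30% from 3.01% to 3.63% and 30 to 40% from 2.99% to 3.46%, with all 4 bypass libraries above all senescent ones in each. From 40 to 60% the libraries of both states overlapped. Windows at 60 to 70% fell from 5.96% to 5.67%, with no overlap, while windows at 90 to 100% rose from 21.1% ± 1.56 to 24.1% ± 0.743. Both edges of the distribution therefore moved upward, the lower one into the range of 10 to 40% and the upper one into the top step. In the top step the groups nearly met, with SEN replicate 2 at 23.37% and SENbp replicate 1 at 23.40%. The library with the fewest positions had the highest share there in each state (SEN replicate 2, and SENbp replicate 4 at 25.1%). The part of the number of positions was not tested. Bimodality was also summarised by a coefficient that takes skewness and kurtosis together and is larger for values split between 2 ends. It was 0.774, 0.779, 0.774 and 0.774 in the senescent libraries and 0.766, 0.768, 0.764 and 0.768 in the bypass libraries. All bypass values were lower, and the mean fell by 0.00868, a small step on a distribution that stayed bimodal.

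**Figure D2:**
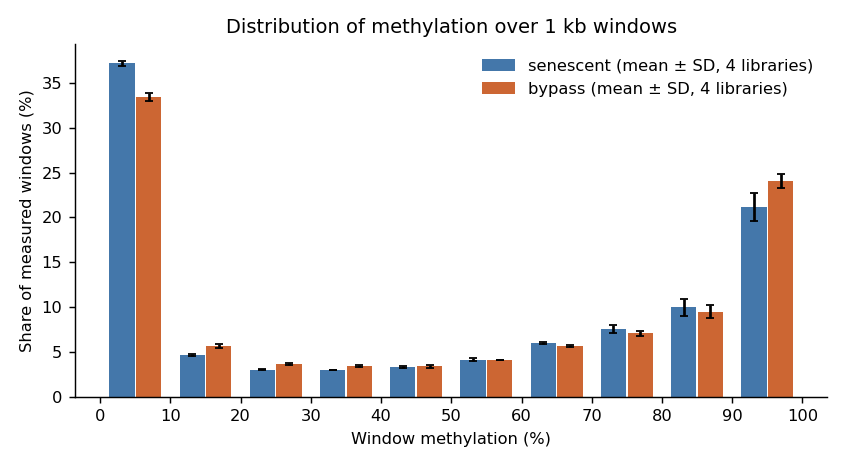
Share of the 41103 measured windows (%) in steps of 10 points of methylation, for the senescent and bypass groups, with bars at the mean of 4 libraries and error bars of 1 SD. The step under 10% falls from 37.2% to 33.5% and the step at 90 to 100% rises from 21.1% to 24.1%, with gains between 10 and 40%.

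Movements between the levels went both ways, with more windows going up. By group means, 1511 windows went from under 20% to between 20 and 80%, and 366 went back. Of the first, 573 had groups that did not overlap, against 39 of the second (10.6% of all tested windows have such groups, 8.72% upward and 1.86% downward). From 20 to 80% up to 80% or more there were 2432 windows, 545 of them without overlap. The opposite path held 1395 windows, 168 of them without overlap. A jump across the whole range was rare: 11 windows went from under 20% to 80% or more, all of them called, and 1 window went the other way.

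The windows called higher mostly moved by part of the range as well. Of the 816, 413 (50.6%) started under 20%, 358 started at 20 to 80% and 45 at 80% or more. Among the 41103 measured windows, tested or not, 17079 started under 20% and 12609 at 80% or more. These are not the base of the calls, since only tested windows could be called. By level in the transformed colonies, 32.9% of measured windows at 0 to 20% were tested and 61.7% of those at 80 to 100%. A window within 10 points of the top cannot rise by 10, so the low count of high starts was partly fixed in advance. After bypass 95 of them were under 20%, 440 were at 20 to 80% and 281 were at 80% or more. From a start under 20% the median rise was 24.9 points, and 81 of the 413 (19.6%) reached 50% or more. From a start at 20 to 80% the median rise was 30.8 points and 347 of 358 reached 50% or more. A gain at a low window thus ended mostly at an intermediate level, while a gain at an intermediate window ended mostly in the upper part of the range. These windows were chosen by the size of the same difference, so the values are a description.

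**Figure D3:**
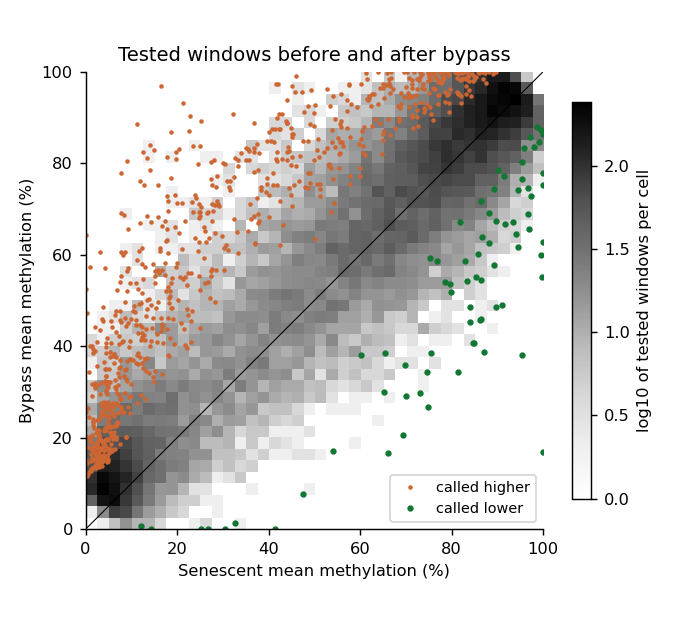
Mean methylation of tested windows in senescent (x axis, %) and bypass (y axis, %) libraries, with the number of all tested windows as shading and called windows as points. The 816 windows called higher lie above the diagonal and 413 of them start under 20%, while the 75 called lower lie below it, mostly at the right.

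The windows called lower mostly started at a high level. Of the 75, 50 started at 80% or more, 23 at 20 to 80% and 2 under 20%, and after bypass 56 lay at 20 to 80%. Of the 41103 measured windows, 12609 started at 80% or more and 17079 under 20%, but not all of these were tested and could be called. A window within 10 points of the bottom cannot fall by 10, so the low count of low starts was partly fixed in advance. The windows called lower held fewer measured positions, with a median of 7 per window, against 8.63 in all tested windows and 15.9 in those called higher. Lost methylation, like most of the gains, mostly ended at an intermediate level.

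Single positions inside the windows were compared where all 8 libraries covered the same ones. Of the 816 windows called higher, 270 had at least 3 such positions. Their mean over shared positions was higher after bypass in 263, by at least 10 points in 225, and none was lower by 10 points. The median difference over shared positions was 22.4 points, and it was 23.6 points for the same windows over all their positions. Of the 75 called lower, 44 had at least 3 shared positions, of which 39 were lower by at least 10 points, with a median of -30.3 points. In nearly all of these windows the direction was thus the same over identical positions. These positions are part of the reads that gave the calls, so the agreement is no independent check. When windows were called from shared positions alone, 291 were called in either direction. Of these, 171 were among the 891 called from all positions.

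Gains inside a window were broad but not uniform. Among the 127 windows called higher with at least 5 shared positions, the median window had 80% of its positions higher after bypass, and in 42 (33.1%) every position was higher. In all 2231 tested windows with as many shared positions the corresponding values were 44.4% and 5.60%. Every position was lower in 143 of the 2231 (6.41%) and in 0 of the 127. Gains of every position were thus not more frequent than such losses among the 2231. The spread of positions inside a called window also grew, from a median SD of 13.8 to 18.8 points, against 17.0 to 18.7 points in all tested windows. Pooling the 1533 shared positions of windows called higher, 53.1% were under 20% in senescence and 27.1% after bypass. Positions at 20 to 80% made up 31.2% and then 33.6%, and positions at 80% or more went from 15.7% to 39.3%. Over the 37270 shared positions of all tested windows the share under 20% went from 24.4% to 21.7% and the share at 80% or more from 42.0% to 45.9%.

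Along the genome the rise was spread over nearly all scaffolds. Of the 79 scaffolds with at least 100 tested windows, 78 had a mean difference above 0, with a median of 3.94 points and a range of -0.22 to 7.79. Windows called higher lay on 207 of the 1048 scaffolds with a tested window, and windows called lower on 59. The percent called higher ran from 0 to 8.72 among the 79, with a median of 3. It was highest on KB708150.1, with 13 of 149 tested windows, and 0 on KB708212.1 (114 tested) and KB708265.1 (179 tested). These 3 scaffolds were named after their values were seen.

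Windows called higher had another such window nearby more often than tested windows at large. Windows of 1 direction whose starts were at most 10 kb apart were joined into a cluster. The 816 windows formed 740 clusters, of which 680 held 1 window, 49 held 2, 9 held 3, 1 held 4 and 1 held 7. In all, 136 windows (16.7%, 95% Wilson interval 14.3 to 19.4%) lay in a cluster of 2 or more. The interval takes windows as independent, which members of a cluster are not. Of all tested windows, 4.64% had a window called higher within 10 kb. Joining at 5 kb gave 13.1% and at 50 kb 26.1%. The share moved with the libraries, to 10.5% without SEN replicate 4 and 10.9% without SENbp replicate 1. It was 2.53% when only positions covered in all 8 libraries were used, where fewer windows could be tested.

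Called windows also have more tested neighbours, since 64.5% of them had another tested window within 10 kb, against 51.9% of all tested windows. Those neighbours were counted as pairs, so a window near several others was counted for each of them. Of 1339 pairs around windows called higher, 194 had a neighbour that was itself called higher (14.5%). Around windows that were not called it was 1145 of 26608 pairs (4.30%). As distinct windows, 1143 tested windows had a window called higher within 10 kb, and 136 of these were themselves called higher. In none of the 1339 pairs was the neighbour called lower, where 0.214% were called lower around windows that were not called. A count of 0 allows up to 0.224% (3 counts of 1339), so no difference was detectable. That limit takes the pairs as independent, which they are not. Windows called lower formed no cluster: all 75 stood alone at 10 kb and also at 50 kb, which allows up to 4% in clusters (3 counts of 75, or 4.87% by the Wilson interval). None of the 57 tested windows within 10 kb of them was called in either direction. With 0.304% of tested windows called lower, 57 neighbours are too few to show whether losses lie together.

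Differences of adjacent windows were more alike than those of distant windows, over a short range. Across 2672 pairs of tested windows with starts 1 kb apart, the Pearson correlation of the difference was 0.219. It was 0.172 at 2 kb (1546 pairs), 0.133 at 3 kb (1379 pairs), 0.101 at 5 kb (1350 pairs) and 0.0758 at 10 kb (1081 pairs). From 50 kb on it stayed at 0.049 up to 500 kb (607 pairs). All windows share the same 8 libraries, and at 1 kb a read can lie across the border, so these are descriptions over pairs with no test. The levels themselves were tied more closely, with correlations at 1 kb of 0.659 in senescence and 0.600 after bypass.

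Neighbouring windows also tend to share a starting level, which goes with the size of the change. After the mean difference at the window's level in the transformed colonies was subtracted, an alternative chosen after seeing the data, the correlation was 0.173 at 1 kb, 0.112 at 2 kb and 0.0394 at 10 kb. The deviations of single libraries from their group mean were compared in the same pairs. Their correlation at 1 kb was -0.0439 to 0.0366 over the 8 libraries. The difference between the states was thus correlated between neighbours, while the scatter of single libraries around their group was near 0 in correlation.

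The neighbours of windows called higher show the range of this agreement. Each pair was counted from both of its windows, so a pair of called windows enters from each side. Of 333 neighbours 1 kb from a window called higher, 68 were called higher (20.4%, 95% Wilson interval 16.4 to 25.1%) and none lower. The interval takes these neighbours as independent, which they are not. Among the 333, 85.0% had a difference above 0, 53.8% rose by at least 10 points and the median difference was 11.0 points. Over all pairs of tested windows at 1 kb, counted alike, these values were 71.8%, 31.1% and 5.13 points. At 2 kb 28 of 147 were called higher (19.0%) and at 3 kb 22 of 134 (16.4%). By 5 kb it was 12 of 121 (9.92%), by 10 kb 8 of 76 (10.5%) and by 20 kb 2 of 61 (3.28%), which is near the 3.31% of all tested windows. The same measure around windows not called was 5.30% at 1 kb and 3.05% at 20 kb.

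**Figure D4:**
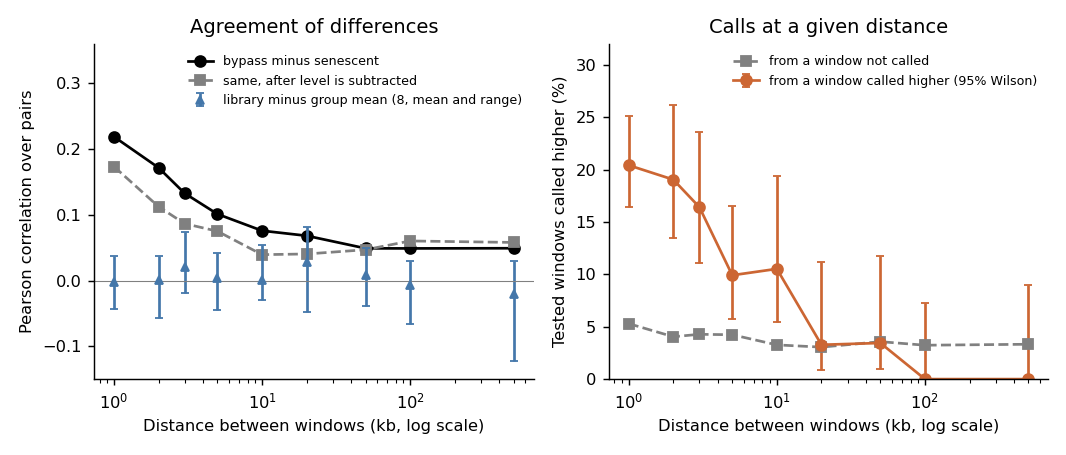
Left, Pearson correlation over pairs of tested windows against their distance (kb, log scale), for the difference, the difference after subtracting the mean at that level, and the deviations of single libraries. Right, percent of tested windows called higher at a given distance from a window called higher and from one not called. Pairs are counted from both windows, and error bars are 95% Wilson intervals that take them as independent. The first correlation falls from 0.219 at 1 kb to 0.0758 at 10 kb, and the percent falls from 20.4% at 1 kb to 3.28% at 20 kb.

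The cluster with the most called windows lay on KB708274.1 from 795001 to 810000, where 7 of 8 tested windows were called. It held windows with almost no methylation in senescence next to windows that were highly methylated in both states. In the window starting at 803001 the senescent libraries had 5.87%, 1.66%, 7.33% and 0.262%, and the bypass libraries 39.97%, 52.8%, 49.2% and 52.4%. The window starting at 807001 had 7.40%, 3.73%, 12.9% and 6.76% in senescence and 80.0%, 80.4%, 66.0% and 85.4% after bypass. The groups stood far apart in both windows (adjusted p = 0.00046 and 0.000403, quasi-binomial model with Benjamini-Hochberg adjustment). The other called windows went from 1.62% to 24.1% (start 795001), 2.16% to 31.9% (804001), 21.1% to 71.3% (805001), 37.4% to 72.4% (808001) and 48.5% to 92.5% (809001). At 795001, 803001 and 804001 the senescent mean was under 5%, the lower limit on pooled methylation. Their bypass level thus helped to bring these windows into the test, so their p-values and the 7 of 8 are a description. At 803001 the transformed colonies had 5.22% ± 2.65 (SD, n = 4), in the senescent range, and at 807001 they had 22.4% ± 19.6, above it on average and widely spread. Of the 9 tested windows within 20 kb on either side none was called, and their median difference was 1.87 points. The window at 795001 was not called without SEN replicate 2, 3 or 4 or SENbp replicate 1 or 2 (adjusted p 0.0501 to 0.0853). Only 5 positions of the cluster were covered in all 8 libraries, of which 4 were higher after bypass.

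**Figure D5:**
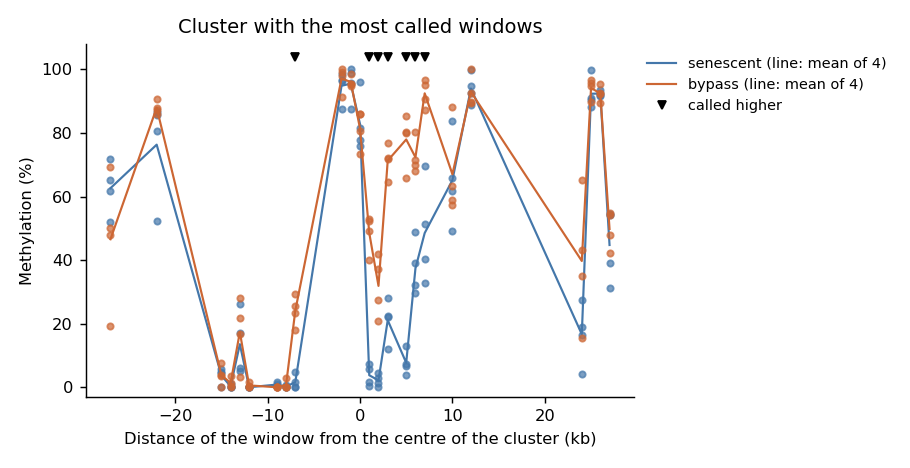
Methylation (%) of measured windows in and around the cluster with 7 called windows, against the distance of each window from the cluster's centre (kb), for each of the 4 senescent and 4 bypass libraries. Called windows lie at -7 kb and from 1 to 7 kb, where bypass lines lie above senescent ones, while the 3 windows at -2 to 0 kb lie near the top in both states.

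A pair of clusters lay near each other on KB708133.1. In the first, from 20567001 to 20574000, all 4 tested windows were called. Its window starting at 20568001 had 9.14%, 18.7%, 11.8% and 23.3% in the senescent libraries and 86.0%, 74.0%, 60.8% and 80.0% in the bypass libraries (adjusted p = 0.000721, quasi-binomial model). Of the 37 positions of this cluster shared by the 8 libraries, 15 were higher, 3 were lower and the median position was at 0 in both states. The window starting at 20573001 went from 18.1% ± 4.58 to 71.8% ± 6.53 (SD, n = 4) and the one at 20570001 from 7.19% to 25.4%. In the fourth window, starting at 20567001, the means were 57.2% and 91.4% but SEN replicate 2 had 85.1%, above the lowest bypass library at 81.9%. The second cluster, from 20764001 to 20779000, had 3 of 4 tested windows called, which went from 19.5% to 73.0%, from 11.1% to 53.9% and from 14.1% to 78.6%. All 6 of the shared positions of the second cluster were higher, with a median position at 18.7% in senescence and 74.7% after bypass. The windows at 20570001 and 20764001 were not called without 4 and 5 of the single libraries respectively, with adjusted p up to 0.0798 and 0.0729.

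In the other clusters windows at an intermediate level rose to a high one. On KB708194.1, from 3652001 to 3656000, all 3 tested windows were called, and no position was covered in all 8 libraries. The window starting at 3655001 had 39.5%, 33.8%, 36.5% and 37.3% in senescence and 65.4%, 83.0%, 86.1% and 95.1% after bypass, with no overlap. Its neighbours went from 47.8% to 91.2% and from 32.3% to 90.8%, the latter not called without SENbp replicate 2 (adjusted p = 0.107). On KB708240.1, from 6660001 to 6668000, 3 of 6 tested windows were called, with means going from 36.9% to 78.2%, from 25.0% to 83.8% and from 44.1% to 80.7%. The first and second of these were each not called in 7 of the 8 runs that left out 1 library (adjusted p 0.0525 to 0.16 and 0.0609 to 0.0897). The first also overlapped, with SEN replicate 3 at 67.6% and SENbp replicate 2 at 62.5%, and 8 of the 11 shared positions of the cluster were higher and 2 lower. Means of the transformed colonies in the 3 called windows were 70.6%, 14.0% and 32.7%.

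Single windows with the smallest p at each senescent level covered the whole range of starts. The smallest of all belonged to the window starting at 676001 on KB708386.1, which had 34 to 88 positions and 549 to 2458 reads per library. Its senescent libraries had 7.94%, 8.28%, 3.28% and 11.9% and its bypass libraries 54.3%, 55.6%, 68.8% and 63.4% (adjusted p = 0.000355). The window starting at 2433001 on KB708222.1 went from 28.2% ± 9.69 to 80.6% ± 4.26 (SD, n = 4), and the transformed colonies had 7.31%. The window starting at 61458001 on KB708127.1 had 54.2%, 54.4%, 44.4% and 58.1% in senescence and 100%, 93.4%, 93.1% and 98.6% after bypass. Windows that were already high reached nearly full methylation: from 75.3% to 99.7% at 8912001 on KB708138.1 and from 80.9% to 99.86% at 3209001 on KB708292.1. The groups did not overlap in any of these 5 windows, and each was called in all 8 runs that left out 1 library.

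The losses named stood alone. The largest was at 1214001 on KB708337.1, with 3 to 5 positions per library, where all 4 senescent libraries had 100% and the bypass libraries had 32.8%, 0%, 0% and 34.4%. It was not called without SEN replicate 4 (adjusted p = 0.0598). At 453001 on KB708423.1 the senescent libraries had 100%, 99.2%, 100% and 82.6% and the bypass libraries 54.6%, 23.9%, 39.9% and 34.0%. At 2234001 on KB708181.1 the mean went from 66.1% ± 13.2 to 16.6% ± 7.35 (SD, n = 4). A better covered loss lay at 1674001 on KB708244.1, with 1077 to 3094 reads per library, where 76.5%, 78.8%, 77.0% and 74.96% became 56.9%, 53.4%, 66.5% and 58.0%. The window at 11966001 on KB708136.1 went from 86.1% to 45.8%, with bypass libraries between 24.0% and 64.6%. No groups overlapped in these 5 windows. Where all libraries of the transformed colonies were measured, their means were 81.4% at 453001, 27.4% at 2234001, 85.0% at 1674001 and 87.5% at 11966001.

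Some losses emptied a window. At 34393001 on KB708130.1 the senescent libraries had 23.9%, 49.4%, 21.7% and 27.2%, and all 4 bypass libraries were at 0. The window at 40001 on KB708572.1 went from 41.5% to 0.169% over 3 positions, and the one at 50001 on KB708466.1 from 12.04% to 0.634% over 16 to 42 positions per library. These were among the less firm calls: leaving out 1 library ended the call in 1 of 8, 6 of 8 and 3 of 7 runs, with adjusted p up to 0.0596, 0.1 and 0.0815. The last window was not tested without SEN replicate 4. Means of the transformed colonies in these 3 windows were 7.89%, 62.4% and 9.51%, in the order named. In all, 6 windows called lower had a bypass mean under 1%, and 17 windows called higher had a senescent mean under 1%. Such a window was tested only because its level in the other state brought it over the lower limit on pooled methylation. Windows under 1% in both states were not tested, so these counts are a description and give no share.

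Read coverage differed between the states on some scaffolds. On 10 of 251 scaffolds with enough positions, the share of reads was lower after bypass, with log2 ratios of -1.18 to -0.62 against -0.20 to 0.16 on the others. These 10 held 641 tested windows, of which 32 were called higher (4.99%, against 3.27% elsewhere) and 4 lower. Mean methylation rose there by 2.97 points, from 36.3% to 39.3%, and by 2.38 points on the other scaffolds (exact permutation p = 0.0286 in each). Without the 10 scaffolds, an alternative chosen after seeing the data, 781 windows were called higher and 71 lower. The part of coverage in these results was otherwise not tested. None of the windows named above lies on them, but the scaffolds of the losses on KB708337.1 and KB708572.1 were not among the 251, so their coverage was not compared.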

How the data were processed

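A commercial kit made the bisulfite libraries from genomic DNA, per the labels' protocols. The submitters' processing notes name methylKit 1.10.0, R 3.6.1, Bowtie2, Bismark 0.22.1, Trim Galore 0.5.0 and bcl2fastq 2.20.0.42, without saying what each did. No build is named for the genome: it is not given in the sources used.

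Per the file headers, the authors' tables hold the read coverage of each CpG position and strand as a count, and the percent of reads with C and with T. Deposited positions had 10 reads or more. The product of coverage and percent gave the methylated reads, and up to a coverage of 1000 all products lay within 0.06 of a whole number. Whether PCR copies were removed is not given. The Wilson intervals take windows or their neighbours as the unit and do not cover error in the read counts.

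Positions above the 99.9th percentile of coverage in their library were dropped and the rest summed over windows of 1 kb. Windows were tested with a quasi-binomial logistic model, group as the term, then an F test and Benjamini-Hochberg adjustment. Dispersions were squeezed in 10 classes of pooled methylation and kept at 1 or more. The squeezing used a Python version of limma's empirical Bayes method, and limma 3.58.1 itself was run only for comparison. The model was also run on simulated windows drawn with its own dispersions, which cannot show how it behaves on the real libraries. The median tested window had 262 to 403 counts per library and a dispersion of 23.8, so libraries varied more than independent counts would. No pair of libraries of 1 state agreed within sampling noise (lowest mean chi-square per window 21.6). Values per library were compared by exact two-sided permutation tests. Called windows of 1 direction with starts at most 10 kb apart formed clusters. Scaffold coverage was compared on scaffolds with at least 200 positions per library, and a log2 ratio below -0.5 was taken as lower.

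Windows named are those of the 5 clusters called higher and the 3 called lower with the most called windows, ties going to the larger sum of absolute differences (all clusters called lower held 1 window, so this sum alone chose them), and per 20-point class of senescent level and direction the called window with the smallest p whose groups did not overlap. Only members of these sets are named, besides 3 scaffolds marked as chosen later. The groups, lists and tests were chosen with earlier results of these data known. Alternatives included leaving out each library, other coverage and window limits, a replicate block and edgeR 4.0.16. Leaving out scaffolds of lower coverage, subtracting the mean at a level, and distances of 100 and 500 kb were added after seeing the data. Python 3.11.15 and R 4.3.3 were used. The other 12 libraries of the series entered no comparison here.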

Additional observations from a re-analysis of the deposited data

Results flagged for a closer look

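Among 42 groups of 4 library values examined, 4 held a library farther from the other 3 than Dixon's 95% limit, where chance gives about 2.1. SEN replicate 2, the senescent library with the fewest positions, was set apart 3 times. In windows at 80 to 100% in the transformed colonies it had 90.1%, against 89.4 to 89.5% in the other senescent libraries. In windows at 60 to 80% in senescence it had 72.1%, against 70.5 to 70.8%. Its bimodality coefficient was 0.779, against 0.774 in the others. Without it the rise at 80 to 100% was 1.36 points instead of 1.24. SENbp replicate 2 had 33.4% of measured windows at 80% or more, against 33.6% in the other bypass libraries, which is a small gap beside the 31.1% of the senescent group.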

How the results depend on the processing

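The upward direction held under the alternatives except where named. Windows called higher and lower numbered 404 and 41 at a coverage of at least 20, 541 and 40 in windows of 2 kb, 155 and 15 without squeezing, and 0 and 0 by edgeR (smallest adjusted p 0.0781). Only positions covered in all 8 libraries gave 237 higher. With no limit on pooled methylation 604 windows were called in either direction, against 891 with it, and 46 of the 604 were lower. Same-numbered libraries did not deviate together (correlations of deviations -0.000539 to 0.00131), and with the replicate block 423 windows were called higher, 372 of its 475 calls in either direction being calls without it. Leaving out 1 library gave 395 (SEN replicate 3) to 684 (SEN replicate 2) higher and 32 to 49 lower; apart from the 684, all of these moved the counts by over 1.5 times. Such runs gave a mean difference of 2.29 to 2.55 points, classes by colony level of 2.61 to 2.79, 6.18 to 6.95, 3.86 to 4.29, 1.53 to 2.15 and 1.18 to 1.36, shares under 20% of -2.82 to -2.62, between -0.185 to 0.513 and at 80% or more 2.30 to 2.81, clustering of 10.5 to 14.4%, adjacent calls of 15.1 to 19.9% and correlations at 1 kb of 0.186 to 0.214. The class at 60 to 80% gave 1.54 points at a coverage of at least 20 (exact permutation p = 0.0571), and the class at 80 to 100% set by senescence reversed to -0.437. The read-weighted mean difference was 1.00. The middle share differed by 1.60 with at least 5 positions and 0.634 in windows of 500 bp, both past the test, and by -0.225 in windows of 2 kb. Clustering was 11.4% at a coverage of at least 20, 2.53% over shared positions, 13.1% at 5 kb and 26.1% at 50 kb. Adjacent calls were 11.1% over shared positions. The correlation at 1 kb was 0.270 at a coverage of at least 20, 0.241 with at least 5 positions, 0.140 over shared positions and 0.190 over all measured windows. The causes were not tested. The median SD of a window between libraries, about 9 points, is close to the least difference called, and at 262 to 403 counts per library and a dispersion of 23.8 it exceeds counting error. Of the 33 named windows none reversed, edgeR called none of them, and 19 were not called without squeezing.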
